A study of Mus musculus with 23 samples.

Results

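Chromosome 2 carried 298 of the 3885 regions of 100 bp at which the authors listed a difference in liver DNA methylation between groups of control mice and mice without hepatocyte STAT5a and STAT5b. The members are all regions of the authors' deposited table that lie on mouse chromosome 2. The chromosome was selected on the deposited differences themselves, because most of those between knockout and control liver were gains. That choice named no sex. The share of gains is therefore a description of the choice, and no test of it was made. The assay was reduced representation bisulfite sequencing, which reads CpG-rich MspI fragments after bisulfite has turned unmethylated cytosines into thymines, with 1 library from the liver of each of 23 mice. The groups were 6 male and 5 female controls carrying a floxed Stat5a-Stat5b locus with no Cre named in their labels, and 6 males and 6 females labelled Alb-Cre-LoxP STAT5ab KO (KO from here on). All mice were 8 to 12 weeks old and are labelled mixed C57BL/6 x 129J, while the albumin promoter-driven Cre transgene came from an FVB/N line. That promoter acts in hepatocytes, and whether the other cells of the KO liver keep STAT5 was not measured here. In whole liver a change of methylation within a cell type and a change in the mix of cell types cannot be told apart, and no marker of liver cell types could be checked in a table of methylation differences.

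STAT5a and STAT5b are transcription factors that are activated by the growth hormone receptor and carry the hormone's signal to hepatocyte genes. Male mice release growth hormone in pulses and females more continuously, and STAT5 is required for much of the sex difference in liver gene expression. Methylation of CpG sites at promoters and enhancers is commonly low where transcription factors are bound and high where such elements are silent. Mouse chromosome 2 bears genes of central importance in hepatocytes, among them Hnf4a, Foxa2 and Cebpb, which encode liver transcription factors, Pck1, which encodes the cytosolic enzyme that commits carbon to gluconeogenesis, and Rxra, which encodes the partner of many nuclear receptors. It also bears Dnmt3b, which encodes a de novo DNA methyltransferase, and the imprinted genes Gnas, Nnat, H13 and Mcts2. These genes come from a list of 24 that was drawn up as genes of chromosome 2. RefSeq's table of the GRCm38.p6 assembly matched 23 of the 24 and places them on that chromosome, which is a check of the list and no result. The deposited positions are in mm9, and no genome or annotation of that build was used, so that no region was assigned to a gene and no sequence is printed.

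Each region has 4 values, the difference in percent methylation (in percentage points) of control males minus control females, KO males minus KO females, KO males minus control males, and KO females minus control females. Gain and loss here mean higher and lower methylation in KO than in control mice of the same sex. The authors listed a difference where it was over 15 points in size with a q-value below 0.05. A 0 stands for any region not listed in that comparison. Levels of methylation, read coverage, q-values and values of single animals are not part of it. The depth and the spread between animals behind each difference are therefore unknown, and no value below has a standard deviation or a test. The titles of the libraries carry 5 codes of unstated meaning, and no code was shared by KO and control mice of the same sex, so that code and genotype cannot be told apart. Control males (4 G128, 2 G129) and control females (2 G129, 3 G130) overlapped in code only in part. So did KO males (2 G130, 4 G131) and KO females (1 G131, 5 G132), so that code and sex cannot be fully told apart either.

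The 298 regions held 393 listed differences. Most regions, 219 (73.5%), were listed in 1 comparison, 65 in 2, 12 in 3 and 2 (0.67%) in all 4, while on the other chromosomes 67.2% were listed in 1 and 1.92% in all 4. KO males against control males gave the most, with 171 regions (57.4% of the 298, against 55.4% of all 3885 regions of the table). Control males against control females gave 96 regions, 32.2% of the members against 38.4% of the table. KO females against control females gave 85 regions, which was 28.5% against 28.1%, and KO males against KO females gave 41 regions, 13.8% against 18%. The make-up of chromosome 2 by comparison thus lay within 7 points of that of the table in each case, and it was the direction of the differences for which the chromosome was picked.

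Of the 171 regions listed in males, 145 gained methylation in KO males and 26 lost it, so that 84.8% were gains, against 68.1% in the whole table. The chromosome was picked for its gains, so this share is no separate result. On the other 18 autosomes the share of gains ran from 60.6% to 78.3%. The gains on chromosome 2 had a median of 21.2 points (interquartile range 17.6 to 26.4), beside 20.4 points on the other chromosomes. The 26 losses had a median of -19.5 points, which was also the median loss elsewhere. Among the 45 regions of at least 25 points there were 43 gains and 2 losses, where gains made up 72.1% of such regions in the whole table. The 2 losses of that size were among 26 losses, beside 153 of 660 on the other chromosomes and 22.6% of the losses in the whole table. The medians of gains and losses lay within 1 point of those on other chromosomes.

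In KO females, 59 of 85 listed regions gained methylation and 26 lost it, a share of 69.4% against 60.9% in the whole table. The choice of the chromosome for its gains covers this share too. The range over the other autosomes was wide, from 36.2% to 82.1%, and 4 autosomes had a larger share than chromosome 2. Gains had a median of 21.3 points and losses a median of -22.1 points. Among the 25 female differences of at least 25 points, 16 were gains and 9 were losses, with 55.7% gains among those of the whole table. The number of losses was 26 in each sex, but only 3 regions were lost in both. The number of gains was 59 in females and 145 in males. Whether this split differs between the sexes was not tested.

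The sexes of control mice showed no surplus of either direction on chromosome 2. Methylation was higher in control males at 48 regions and higher in control females at 48, or 50.0% against 47.3% in the whole table. Between KO males and KO females, 30 regions were higher in males and 11 in females, 73.2% against 50.4% in the whole table. This was a larger share than on any of the other 18 autosomes, where it ran from 30.3% to 66.7%, but it rests on 41 regions. The comparison uses the same KO libraries as the differences by which the chromosome was picked, and it is no separate support for that choice.

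**Figure D1:**
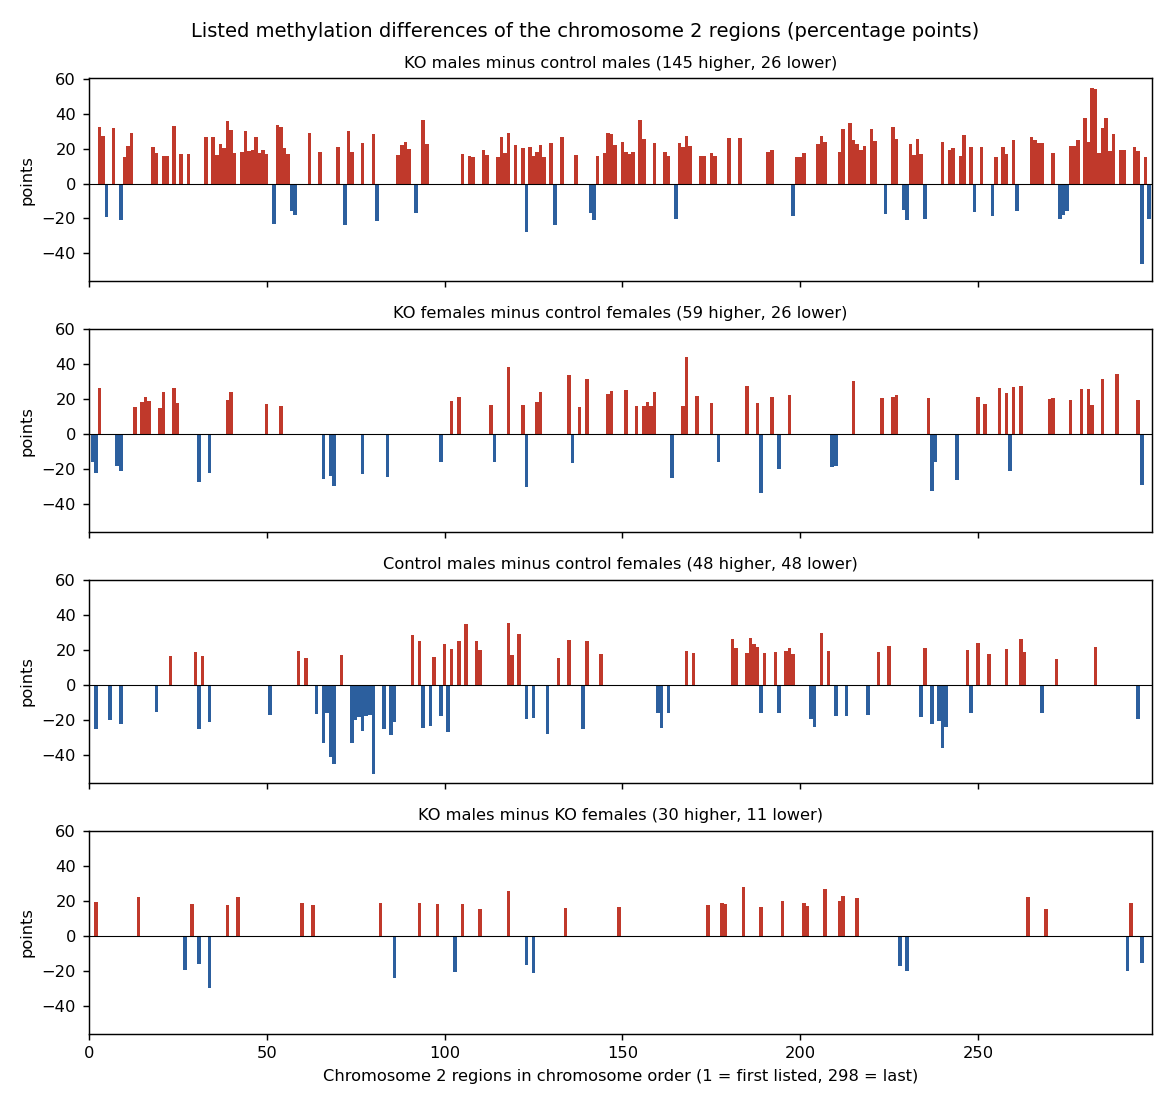
Listed methylation differences (vertical axis, percentage points) of the 298 chromosome 2 regions in chromosome order (horizontal axis), with 1 panel per comparison, red bars for regions higher and blue bars for regions lower in the first-named group. Gains in KO males (145 against 26 losses) occurred along the whole order, and the tallest bars, of up to 54.9 points, stand close together near the distal end.

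**Figure D2:**
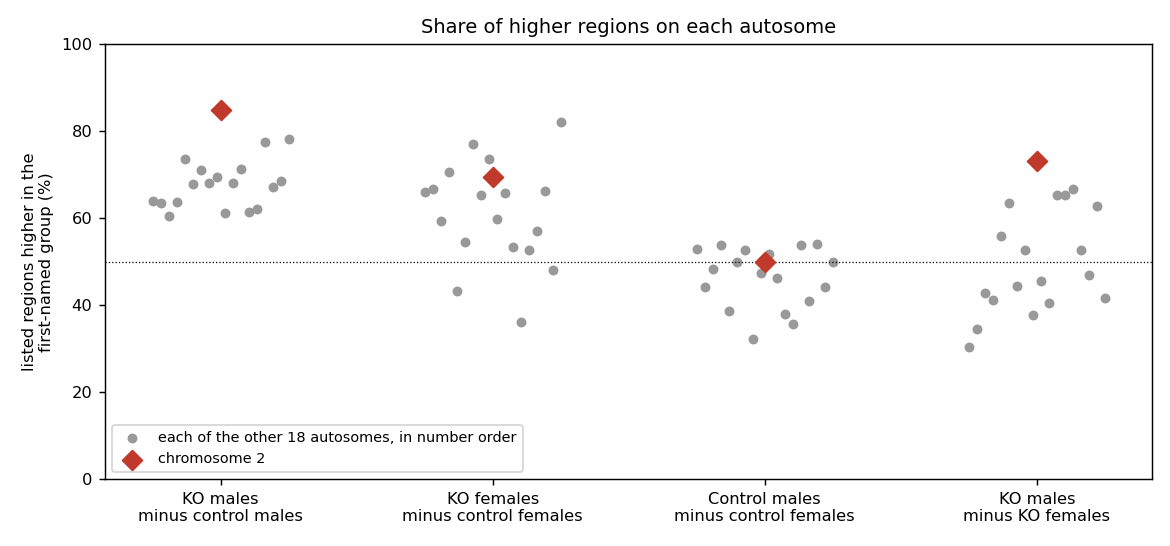
Share of listed regions that were higher in the first-named group (vertical axis, percent) for chromosome 2 (red diamond) and each of the other 18 autosomes (grey points) in the 4 comparisons. Chromosome 2 was above all other autosomes in KO males minus control males (84.8%) and KO males minus KO females (73.2%), had 4 autosomes above it in KO females minus control females (69.4%) and was at 50.0% in the control sex difference.

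The largest gains in males were neighbours. In the authors' deposited table KO males exceeded control males by 54.9 points at chr2:172805601-172805701. At chr2:172888001-172888101 the deposited table gives 53.9 points, and at chr2:172968701-172968801 it gives 37.5 points. The gain that followed in rank, 37.3 points in the authors' deposited table, was at chr2:172773501-172773601. These 4 regions lay within 195.3 kb, and all 7 regions listed between the first and the last of them gained methylation in KO males. The other 6 of the 10 largest gains ranged from 33.03 to 36.4 points and lay elsewhere on the chromosome, between 26959901 and 155961901.

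The 3 largest losses in males lay far apart. The largest, -46.1 points in the authors' deposited table, was at chr2:177859801-177859901, near the distal end. The deposited table has the next at chr2:101953701-101953801 (-27.6 points) and at chr2:47541001-47541101 (-24.0 points). The other 7 of the 10 largest ranged from -23.5 to -20.4 points. Between 160 and 180 Mb lay 10 of the 26 losses, beside 39 gains. Among them were 3 consecutive losses from 171698601 to 172043601, with a median of -18.3 points. They came just before the distal gains that start at 172313301. The differences nearest to the listing threshold were gains of 15.09 points and losses of -15.35 points.

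In females the largest gain of the authors' deposited table was 44.4 points at chr2:128003501-128003601. It was followed in the deposited table by 38.6 points at chr2:93260101-93260201 and 34.5 points at chr2:173104601-173104701, and the remaining 7 of this top 10 were between 27.2 and 33.7 points. The largest loss in KO females was -33.9 points at chr2:146589501-146589601 in the authors' deposited table. Losses of -32.2 points at chr2:165251401-165251501 and -30.02 points at chr2:101953701-101953801 came next in the deposited table, and the tenth was -24.3 points. The 2.35 Mb from 172313301 to 174664401 held 4 of the 10 largest gains in males and 2 of the 10 largest in females.

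Regions were unevenly placed along the chromosome, from 4749201 to 180784601. The median distance from a region to the next was 221.2 kb, and 113 of the distances were at most 100 kb, 52 at most 10 kb and 27 exactly 100 bp, that is, adjoining regions. Between 20 and 40 Mb lay 57 regions (19.1%), and 104 regions lay between 150 and 180 Mb. No region was listed over 9.73 Mb between 11447801 and 21179701. The part of the chromosome that the libraries covered is unknown, so the density of regions cannot be separated from the density of MspI fragments.

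Gains in KO males were spread over the chromosome. In 18 of 19 bins of 10 Mb the gains outnumbered the losses, and the last bin held a single region, a loss. With 84.8% gains, this follows in part from the overall split alone, and how far was not tested. Some bins held few male regions, such as the 2 gains from 10 to 20 Mb. The bins from 30 to 40 Mb and from 160 to 170 Mb held 21 gains each, with 3 losses in the former and 6 in the latter. From 20 to 30 Mb all 9 listed regions were gains. In KO females gains outnumbered losses in 10 of the 16 bins with a listed region, losses outnumbered gains in 4, and 2 bins were even. The first bin held 1 gain and 4 losses in females but 3 gains and 2 losses in males.

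**Figure D3:**
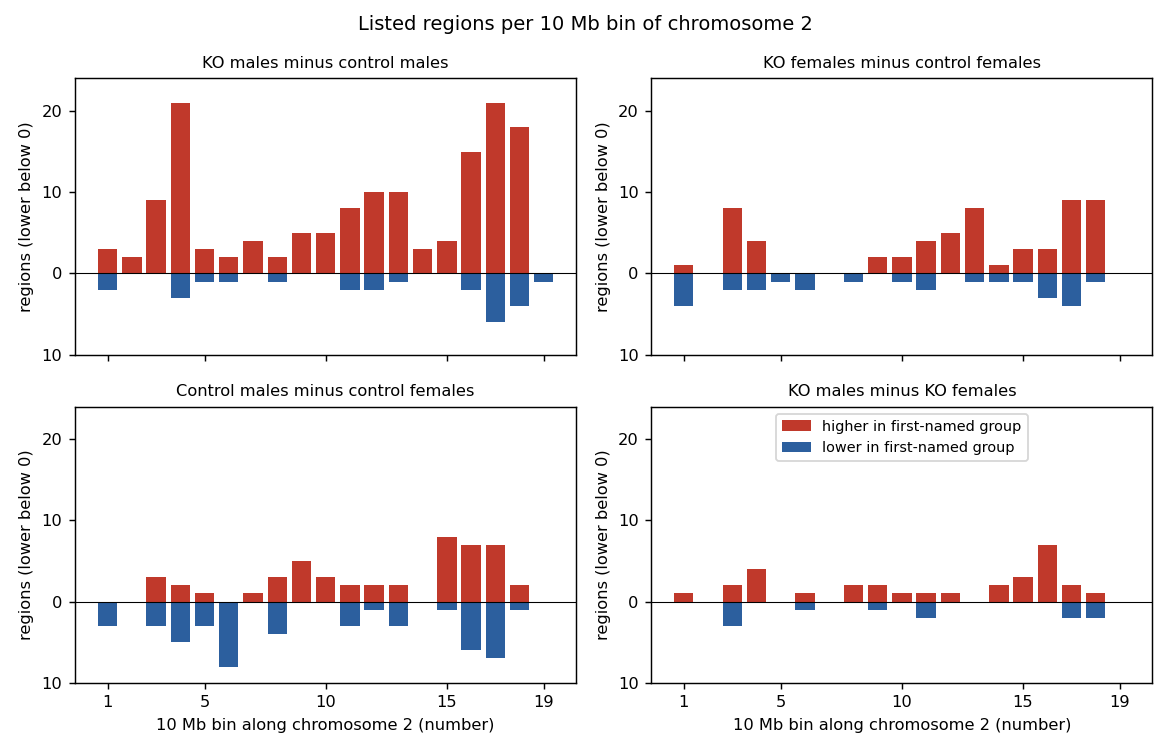
Number of listed regions (vertical axis) higher (red, above 0) and lower (blue, below 0) in the first-named group, in consecutive 10 Mb bins of chromosome 2 (horizontal axis, bin number), 1 panel per comparison. Gains in KO males exceed losses in 18 of 19 bins, on a chromosome picked for its gains. Control males were lower than control females at all 8 regions of the sixth bin.

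Following the order of the listed regions, the male gains ran in long unbroken stretches. The longest held 26 consecutive gains and no loss, from 11324201 to 31377101, a span of 20.1 Mb with a median gain of 19.1 points. Another had 16 consecutive gains from 172313301 to 174664401, which span 2.35 Mb and have a median gain of 22.8 points. Stretches of 15 gains from 152533401 to 156331701 and of 14 gains from 118083001 to 126502601 had medians of 22.8 and 20.0 points. With 84.8% gains, long unbroken stretches follow in part from the overall split alone, and how far was not tested. Describing stretches of any length was decided after the values were seen.

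In females the same parts of the chromosome differed among themselves. Across the span of the 26 male gains, 11 regions gained and 2 lost methylation in KO females. Within the distal 2.35 Mb span with 16 male gains, KO females had 7 gains with a median of 25.7 points and no loss. From 152533401 to 156331701, where 15 regions gained in males, KO females had only 1 gain and 2 losses. In that span 6 regions were higher in KO males than in KO females and none lower, and this comparison uses the same KO males. Across the span of 14 male gains KO females had 8 gains and no loss.

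At distances of up to 1 kb, consecutive regions listed in the same KO comparison had the same sign. Among consecutive regions listed in males, all 20 pairs at most 1 kb apart had the same sign, as did 10 of 11 pairs over 1 to 10 kb apart. The count was 26 of 33 pairs over 10 to 100 kb, 47 of 61 pairs over 100 kb to 1 Mb, and 26 of 45 pairs over 1 Mb apart. On the other chromosomes the shares were 99.3%, 82.1%, 62.8%, 63.5% and 56.5% over the same distances. In females all 5 pairs within 1 kb on chromosome 2 had the same sign, 1 of 2 pairs over 1 to 10 kb apart, and 23 of 42 pairs over 1 Mb apart. On the other chromosomes the female counts were 82 of 90, 7 of 11 and 254 of 449. Between the control sexes all 5 pairs within 1 kb had the same sign, and the 1 pair over 1 to 10 kb apart did not. Adjoining regions can share MspI fragments and reads, so that they are not independent measurements.

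Runs of neighbours of the same sign with gaps of at most 10 kb numbered 23 in the male KO comparison, of which 20 were gains, and held 53 of the 171 regions. Only 5 of these runs held 3 or more regions, and all 5 were gains between 30 and 33 Mb. The first had 4 regions from 30040201 to 30048101 with a mean gain of 21.5 points. The next, of 3 regions from 30062801 to 30070101, had a mean of 28.0 points. A run of 4 regions from 31345501 to 31353501 averaged 23.65 points, another of 3 regions from 31367201 to 31377101 averaged 17.8 points, and the last, of 3 regions from 32271901 to 32273001, averaged 28.6 points. In KO females there were 5 runs, and the only one of 3 regions, from 25321201 to 25321501, had a mean gain of 19.6 points. None of its regions was listed in males.

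The distal cluster can be read region by region. At chr2:172313301-172313401 the authors' deposited table gives gains of 21.4 points in males and 19.6 points in females. At chr2:172786601-172786701 the gains in the deposited table were 23.9 and 25.7 points. At chr2:172968601-172968701 they were 31.5 and 31.7 points in the authors' deposited table, the smallest gap between the sexes among the shared gains. Most male gains of the cluster had no listed female value and could not be compared, among them 37.5 points at chr2:172968701-172968801 and 37.3 points at chr2:172773501-172773601. Among the regions of the cluster listed in both sexes, males and females were far apart at 1. At chr2:172805601-172805701 the deposited table has 54.9 points in males and 16.6 points in females. At chr2:172888001-172888101, the other gain of more than 50 points, the female difference was not listed, and control males were 22.0 points above control females in the authors' deposited table. At chr2:173104601-173104701 the deposited table gives a gain of 34.5 points in females with no listed difference in males, while chr2:173104401-173104501, close beside it, has 28.3 points in males and none in females.

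**Figure D4:**
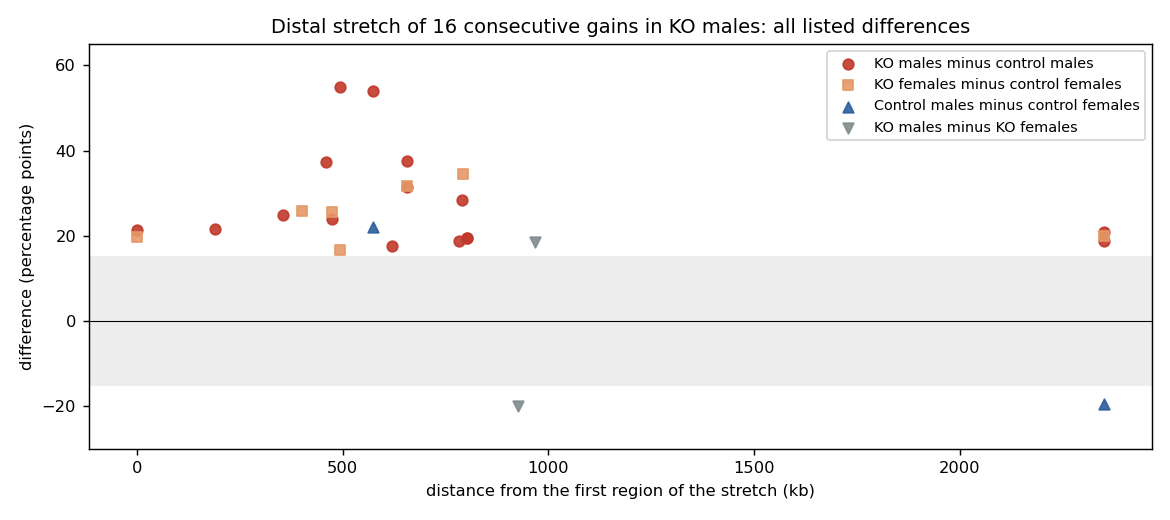
All listed differences (vertical axis, percentage points) in the distal span with 16 consecutive gains in KO males, by distance from its first region (horizontal axis, kb), with a marker for each comparison and the range below the listing threshold shaded. The 16 male KO values are gains by the definition of the span, and the 7 listed female KO values are gains too. The 2 male values above 50 points have female values of 16.6 points or none listed.

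Regions called in both sexes moved together on chromosome 2. The male and female KO comparisons share no library. They listed 35 regions in common, which was 20.5% of the male and 41.2% of the female list, beside 17.7% and 34.8% on the other chromosomes. At 31 of these methylation was gained in both sexes, at 3 it was lost in both, and at 1 the signs were opposite. The same direction thus held at 34 of 35 (97.1%), against 79.7% in the whole table and 273 of 350 (78.0%) on the other chromosomes. Because chromosome 2 was picked for its gains, a high share of agreement follows in part from the splits, and the difference from the other chromosomes was not tested. Among regions listed in only 1 sex, gains made up 113 of 136 in KO males and 28 of 50 in KO females. These counts were not made for the other chromosomes, where gains were 66.7% of all male and 60.2% of all female listed regions. On chromosome 2, 31 of the 59 female gains lay at regions that also gained in males, beside 207 of 606 on the other chromosomes. This too follows in part from the splits and was not tested.

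The 31 shared gains had a median of 24.8 points in males and 22.9 points in females. The male value was the larger at 14 and the female value at 17, and the median gap between them was 4.88 points. Ranked by the smaller of both values, the shared gain at chr2:172968601-172968701 led, followed by chr2:93260101-93260201, with 28.9 points in males and 38.6 in females in the authors' deposited table. At chr2:128003501-128003601 the deposited table gives 27.4 and 44.4 points. At chr2:6116901-6117001 it gives 32.6 and 26.4 points, and at chr2:26959901-26960001 the authors' deposited table has 33.03 and 26.3 points. The next 5 by this ranking had smaller values of 23.9 to 25.05 points. Of the 31, 15 reached at least 20 points in both sexes.

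The 3 shared losses were the male loss of -46.1 points at chr2:177859801-177859901, where females had -28.9 points in the authors' deposited table, a pair of -27.6 and -30.02 points at chr2:101953701-101953801, and a pair of -20.7 and -20.8 points at chr2:8708101-8708201. The only region of opposite sign was chr2:51368801-51368901, at which the deposited table gives a gain of 23.2 points in males and a loss of -22.95 points in females. The control sex difference there was -26.5 points in the authors' deposited table.

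**Figure D5:**
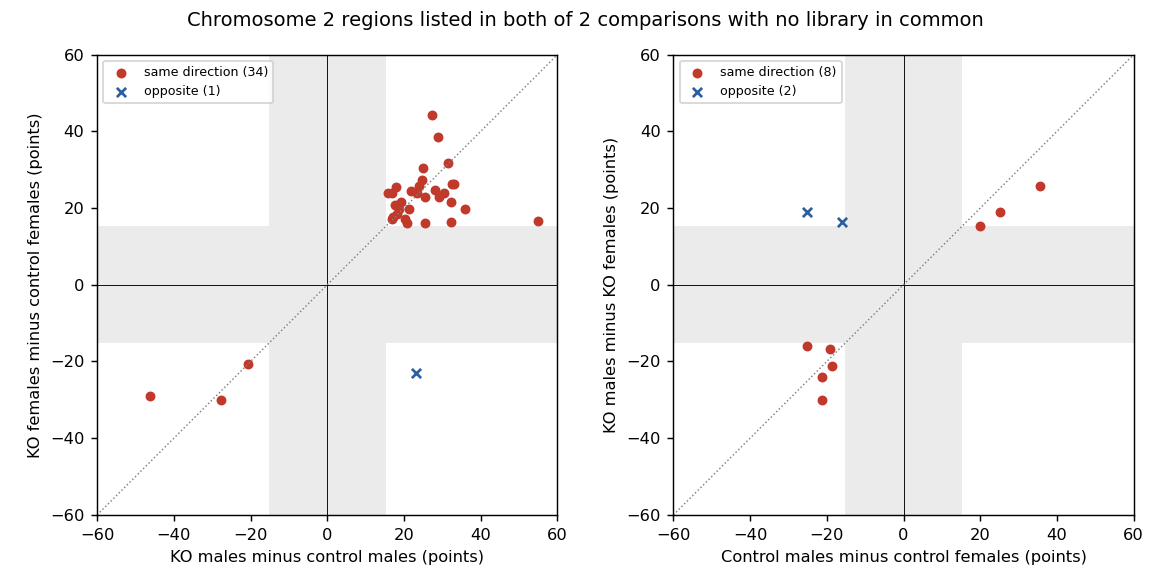
Differences at chromosome 2 regions listed in both of 2 comparisons that share no library (both axes in percentage points), on the left KO against control in males and females (35 regions) and on the right males against females in controls and KO mice (10 regions). Grey bands mark the range below the listing threshold, the dotted line marks equal values, and blue crosses mark the 1 and 2 regions with opposite signs.

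The control sex difference was evenly split over the chromosome as a whole, and the spans below, which lean to 1 side, were picked after the values were seen. Consecutive regions listed between the control sexes had the same sign at 20 of 31 pairs over 100 kb to 1 Mb apart. At over 1 Mb apart it was 27 of 52 pairs. The shares on the other chromosomes were 57.4% and 48.2%. From 34912901 to 59638901, 15 of the 16 regions listed between the control sexes were lower in males. The 10 last of these were consecutive, with a median of -23.2 points. The 3 largest female-higher differences of chromosome 2 lay there, in the authors' deposited table at chr2:52289101-52289201 (-50.8 points), chr2:46027201-46027301 (-44.95 points) and chr2:39501101-39501201 (-41.2 points). Further along, 8 consecutive regions from 81551501 to 99467901 were higher in males, with a median of 25.04 points, and so were 8 from 128003501 to 145686501, with a median of 21.4 points. Regions higher in control males were led in the authors' deposited table by 35.5 points at chr2:93260101-93260201, 35.2 points at chr2:84655801-84655901 and 29.95 points at chr2:155211601-155211701. The rest of the 10 largest ended at 25.2 points for male-higher and -26.5 points for female-higher regions. The only runs of 3 regions within 10 kb were male-higher from 145686201 to 145686501 (mean 24.2 points) and female-higher from 165721801 to 165722401 (mean -26.8 points).

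The KO comparisons within the span from 34912901 to 59638901 share control libraries with this sex difference, and their values are given beside it without a count of agreement. At chr2:52289101-52289201 KO males gained 28.1 points in the authors' deposited table, and no female difference was listed. At chr2:46027201-46027301 KO females lost methylation (-29.6 points in the deposited table), and at chr2:39501101-39501201 they had -23.9 points, with no listed difference in males at either. Over the whole span there were 6 gains and 2 losses in KO males and 5 losses and no gain in KO females. The span was picked after the values were seen, where control females were mostly above control males. The shared control libraries by themselves favour male gains and female losses there, so these counts are no separate result.

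Fewer regions, 41, differed between KO males and KO females. In the direction of higher KO males, the authors' deposited table was led by 28.1 points at chr2:145316201-145316301, 26.9 points at chr2:155446601-155446701 and 25.8 points at chr2:93260101-93260201. In the other direction the deposited table had -29.9 points at chr2:29735101-29735201, -24.1 points at chr2:59638801-59638901 and -21.2 points at chr2:103289701-103289801. The tenth of each direction were 19.8 and -16.0 points. The longest stretch of 1 sign held 14 consecutive male-higher regions from 107594701 to 156233201, over 48.6 Mb, with a median of 18.9 points. Its ends were set where the sign changes, and 73.2% of the whole list was male-higher. No run of neighbours within 10 kb was found in this comparison. Only 4 of its 41 differences reached 25 points, beside 130 of 699 in the whole table.

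A sex difference in both control and KO mice was listed at 10 regions, and these comparisons share no library. They made up 10.4% of the control and 24.4% of the KO list, beside 12.4% and 26.3% on the other chromosomes. At 8 the direction was the same, male-higher at 3 and female-higher at 5, and at 2 it was opposite (80.0% the same, against 47.5% in the whole table and 79 of 173 on the other chromosomes, a difference that was not tested). The 3 male-higher regions had larger values in controls than in KO mice in the authors' deposited table, with 35.5 against 25.8 points at chr2:93260101-93260201, 25.2 against 18.8 points at chr2:71662201-71662301 and 19.96 against 15.3 points at chr2:86754301-86754401. The 5 female-higher regions were mixed in this respect. KO mice had the larger difference at chr2:59638801-59638901 (-21.4 points in controls, -24.1 in KO mice), chr2:29735101-29735201 (-21.2 and -29.9) and chr2:103289701-103289801 (-18.7 and -21.2). Controls had it at chr2:29096901-29097001 (-25.2 and -16.0) and chr2:101953701-101953801 (-19.2 and -16.8). The opposite signs were at chr2:5135001-5135101, with -25.1 points in controls and 19.1 in KO mice in the deposited table, and at chr2:146589501-146589601, with -16.0 and 16.3 points. At both of these regions KO females had less methylation than control females (-22.1 and -33.9 points in the deposited table), and no male KO difference was listed. These female KO differences use the same female libraries as the sex differences, so they are no separate result. A control sex difference that was not listed in KO mice is no measured loss, since unlisted regions have no value.

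A pair of regions was listed in all 4 comparisons. At chr2:93260101-93260201 every value that the authors' deposited table holds was positive, 35.5 points for control males over control females, 25.8 for KO males over KO females, and gains of 28.9 points in males and 38.6 in females. Methylation there was lowest in control females and higher in control males, and KO mice of each sex were above the controls of that sex. At chr2:101953701-101953801 the deposited values were all negative, -19.2 and -16.8 points for the sex differences of control and KO mice, and -27.6 and -30.02 points for the KO differences in males and females. If each group has a single level, the KO sex difference equals the control sex difference plus the male minus the female KO difference, and both regions closed within 0.05 points.

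The same arithmetic gives the unlisted value of the 12 regions listed in 3 comparisons. It exceeded 15 points in size at 7 of them, beside 43 of 142 such regions on the other chromosomes, and the largest was -30.95 points, at chr2:29735101-29735201 for KO males against control males. For the same comparison it gave 22.08 points at chr2:5135001-5135101 and -1.53 points at chr2:146589501-146589601, where the sex differences had opposite signs. In the distal cluster, chr2:172888001-172888101 has a control sex difference and a male gain that add to 75.87 points, so that at least 1 of its 2 unlisted differences would be 37.9 points or more. In all, 10 of the 296 regions not listed in all 4 comparisons had an unlisted difference that must exceed 15 points by this arithmetic, beside 66 of 3518 on the other chromosomes. The arithmetic did not close everywhere: on the other chromosomes it closed within 0.05 points at 42 of 69 regions listed in all 4 comparisons, and was off by up to 33.0 points at the rest. As far as it holds, a 0 is not a small difference at these 10 regions.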

How the data were processed

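Livers of 23 mice were profiled by RRBS, with MspI-cut DNA of 40 to 220 bp, per the labels' protocols. The authors deposited 1 table of differences in percent methylation between groups, made with Trim Galore 0.4.3, Bismark and methylKit on mm9, per the submitters' processing notes. The sources used here do not give the role of each tool, the coverage minimum or the handling of replicates. WT in the table was taken to mean the floxed controls. A table with no per-animal values allows no test over animals, and depth is unknown.

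From the deposited values, regions were counted by direction, sorted by position, joined into runs (same sign, starts at most 10 kb apart) and binned by 10 Mb, with Python 3.11.15 and pandas 2.3.3. The run-joining step was tested on simulated data. Percentages for the whole table use its 3885 regions, or those listed in the comparison. Members, lists and the naming rule were chosen with earlier results of these data known. By that rule the 10 largest differences of each direction were taken, the first 3 given in full, with shared gains ranked by the smaller value, regions listed in all 4 comparisons and runs of 3 or more regions. Stricter sizes, merged neighbours, single-comparison regions, other gaps and other bins were tried as alternatives.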

Additional observations from a re-analysis of the deposited data

How the results depend on the processing

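Gains outnumbered losses in both KO comparisons under every alternative run, as they did in the whole table (68.1% gains in males and 60.9% in females). The chromosome was picked for its gains, and the alternatives recount the same listed differences, so they are no separate support for that surplus. With differences of at least 25 points the regions numbered 45 in KO males against control males (95.6% gains), 25 in KO females against control females (64.0% gains), 24 between the control sexes and 4 between the KO sexes. At that size 8 regions were shared by the male and female KO comparisons (100% in the same direction) and 1 by both sex comparisons (100%, which rests on that region alone). For these agreements the only other alternative was merging within 10 kb. Merging neighbours within 100 kb left 107 units in the male KO comparison. Counting only regions listed in a single comparison left 52 for the control sexes, 22 for the KO sexes and 30 for KO females (63.3% gains). With gaps of up to 100 kb the runs numbered 7 between the control sexes, 2 between the KO sexes and 8 in KO females. Leaving out each 10 Mb bin in turn, an alternative chosen after seeing the data, kept the share of gains between 84.0% and 86.1% in males and between 66.7% and 72.5% in females. No paired analysis was possible because the table has no per-animal values, and for the same reason no replicate could be left out.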
